A study of Mus musculus with 2 samples.

Results

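The cell cycle genes described here are 39 protein-coding genes, found by symbol among the 32285 genes listed for each library, of which 16 act around DNA replication (S phase) and 23 around mitosis. Each of the 39 had UMIs (unique molecular identifiers, 1 per captured transcript) in both libraries. They were followed in single cells from tumours under the skin, raised with 4T1, a carcinoma line of mouse mammary gland. 1 library came from mice given AIE COF phototherapy, a light treatment with a covalent organic framework, and 1 from mice given PBS. Tumours of both groups were taken on day 7 after phototherapy from mice labelled C57BL/c, and the protocol text is the same for both libraries. Treatment is the only difference that the labels give. With 1 library per group it cannot be told apart from differences between tumours, preparations or runs. The sources used here do not give the number of animals behind a library. With 1 library per group, no difference below has a replicate check or a p-value.

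Cells that commit to division first make the enzymes of replication. Transcription factors of the E2F family switch on the genes of the MCM helicase, of the sliding clamp PCNA and of deoxynucleotide synthesis, and before that point pocket proteins of the retinoblastoma family hold these genes silent. A later wave, driven by B-MYB, FOXM1 and the MuvB complex, brings the cyclins A and B, the mitotic kinases, the kinetochore and the spindle. In tumours both waves are read as a measure of proliferation in the malignant cells and in the immune cells around them.

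Members of the 2 waves differed in how often certain short motifs occurred in their promoters, though many lacked them. A match was sought in the 250 bases before the transcription start on both strands, in the RefSeq promoter table of the build GRCm38.p6, which held 33 windows for 32 of the 39 members. The motifs were the CHR element (TTTGAA or TTCGAA), which MuvB binds, the CCAAT box (CCAAT), which NF-Y binds, and E2F sites (TTTGGCGC, TTTCCCGC, TTTCGCGC or TTCCCGCC). The CHR letters were found in 9 of 20 windows of mitotic members (45.0%), in 2 of 13 windows of S-phase members (15.4%) and in 17.1% of all 32851 windows of the table. E2F letters were found in 5 of 13 S-phase windows (38.5%), in 1 of 20 mitotic windows (5.0%, that of Cdk1) and in 2.92% of all windows. A CCAAT box was common to both groups, with 9 of 13 S-phase windows (69.2%) and 15 of 20 mitotic windows (75.0%) against 33.8% of all windows. All 9 mitotic windows with a CHR also held a CCAAT box. These are letter matches, not binding sites. The last 120 bases before the start of 3 mitotic and 2 S-phase members are shown as examples of each arrangement, 5′ to 3′ on the strand of the gene, with matches on either strand in capitals.
Top2a (chr11:99024190-99024309, minus strand): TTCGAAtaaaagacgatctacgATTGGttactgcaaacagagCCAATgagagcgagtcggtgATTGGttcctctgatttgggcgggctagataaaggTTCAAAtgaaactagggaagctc
Mki67 (chr7:135716380-135716499, minus strand): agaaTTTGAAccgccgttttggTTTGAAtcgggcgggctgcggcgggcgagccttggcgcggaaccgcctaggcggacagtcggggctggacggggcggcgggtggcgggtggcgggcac
Ccnb2 (chr9:70421555-70421674, minus strand): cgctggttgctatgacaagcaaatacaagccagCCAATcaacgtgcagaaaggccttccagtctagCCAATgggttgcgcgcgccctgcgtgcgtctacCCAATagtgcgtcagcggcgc
Mcm6 (chr1:128359706-128359825, minus strand): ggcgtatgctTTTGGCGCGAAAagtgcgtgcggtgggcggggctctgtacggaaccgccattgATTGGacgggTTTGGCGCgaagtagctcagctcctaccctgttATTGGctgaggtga
Rrm1 (chr7:102441575-102441694, plus strand): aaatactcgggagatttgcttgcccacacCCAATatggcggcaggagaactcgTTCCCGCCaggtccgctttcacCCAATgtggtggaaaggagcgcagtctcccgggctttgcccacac
In the Mcm6 stretch, 2 overlapping E2F matches on opposite strands form the first run of capitals. The CHR of Ccnb2 and the CCAAT box of Mki67 lie within the 250 bases but upstream of the stretch shown.

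The analysis rests on 8619 cells of the treated library (median 3880 UMIs) and 7864 of the PBS library (median 6380 UMIs). 39 barcodes occurred in both libraries, and 27 of them were kept as cells in both. Leaving out every cell with any of the 39 kept the direction of all 8 class sums given below. Clusters were built without the members and related genes, 221 in all, so that cycling cells would not form clusters of their own through these genes. The 4 classes compared were tumour-like cells (2598 treated and 3058 PBS), T-like cells (1574 and 705), macrophage-like cells (1269 and 889) and B-like cells (1202 and 365). Tumour-like cells carried few leukocyte transcripts (Ptprc at 14.8 CPM treated and 6.25 CPM PBS, CPM being counts per 1000000 UMIs of the class in that library) and summed tumour markers of 1399 and 1383 CPM. The T-like cells had UMIs of all 10 T cell markers (5785 and 6055 CPM summed) and the macrophage-like cells of their own list (14215 and 17806 CPM). The B-like cells had 8 of 9 B cell markers (7166 and 7177 CPM), with Ms4a1 at 0. Against the label of an epithelial carcinoma line, 9 epithelial genes summed to only 2.56 and 3.33 CPM in tumour-like cells, with Epcam at 0.519 and 0.573 CPM and Krt18 at 0 and 2 UMIs. All 7 fibroblast markers had UMIs in tumour-like cells, at 3191 and 3659 CPM summed, above the sum of the tumour markers. The tumour markers are a list for cells with little Ptprc and much RNA, so tumour-like is a working name. The intervals given below are 95% intervals that cover counting error only, which is narrower than the error between tumours.

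Of the 4 classes compared, tumour-like cells held the highest summed levels of cell cycle genes and B-like cells the lowest. Summed over the 16 S-phase members, tumour-like cells stood at 1705 CPM (1696 to 1715) in the treated library and 1523 CPM (1516 to 1531) in the PBS library. The 23 mitotic members summed to 5004 CPM (4988 to 5019) and 4751 CPM (4737 to 4764) in the same cells. B-like cells stood at 543 and 554 CPM for the S-phase members and at 905 and 945 CPM for the mitotic members. T-like and macrophage-like cells lay between these, and their order depended on the library. In the treated library macrophage-like cells, at 2720 CPM (2689 to 2751) of mitotic members, were above T-like cells at 1830 CPM (1782 to 1878). In the PBS library T-like cells, at 3192 CPM (3120 to 3266), were above macrophage-like cells at 2220 CPM (2186 to 2255). The S-phase members had the same exchange of places, with 1391 CPM in macrophage-like and 1009 CPM in T-like cells of the treated library and 1116 and 1374 CPM in the PBS library.

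**Figure D1:**
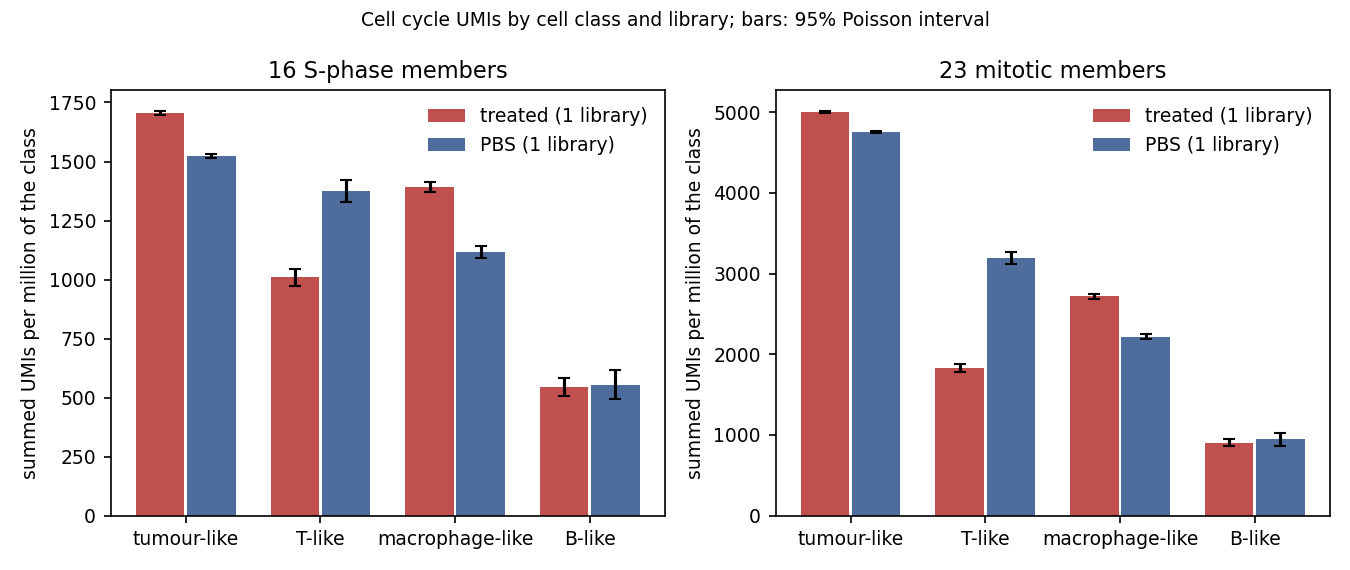
Summed CPM of each class (vertical axes) for the 16 S-phase members (left) and the 23 mitotic members (right) in 4 cell classes, with 1 bar per library and 95% Poisson intervals. Treated T-like cells lie at 1830 CPM of mitotic members against 3192 CPM in the PBS library, and treated macrophage-like cells at 2720 against 2220 CPM.

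The order of the classes was shared by most single members. In the treated library 37 of the 39 were highest in tumour-like cells, the exceptions being Pcna and Tyms in macrophage-like cells. In the PBS library 34 of the 39 were highest there, the exceptions being Mcm4, Pcna, Tyms, Kif11 and Hmgb2 in T-like cells. B-like cells were lowest for 34 members in the treated and 37 in the PBS library. Pcna, the sliding clamp of the polymerases, which also acts in repair, was spread most evenly. Its level was 507 CPM in treated tumour-like, 476 in T-like, 637 in macrophage-like and 252 in B-like cells. In the PBS library Pcna stood at 428, 517, 517 and 225 CPM in the same order, so that T-like and macrophage-like cells were level there. Cenpf, a kinetochore protein of late G2 and mitosis, was far steeper. It stood at 286 CPM in treated tumour-like cells, 52.4 in T-like, 120 in macrophage-like and 25.9 in B-like cells, and at 279, 138, 87.7 and 27.7 CPM in the PBS library.

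The leading members of the other role groups differed in how much their levels varied over the classes. Gmnn, the inhibitor of renewed origin loading, stood at 133, 72.5, 114 and 31.8 CPM in treated and at 122, 117, 88.5 and 31.2 CPM in PBS tumour-like, T-like, macrophage-like and B-like cells. Rrm2, the regulated subunit of ribonucleotide reductase, stood at 261, 66.4, 78.7 and 23.3 CPM and at 238, 140, 65.7 and 55.4 CPM in the same order. Ccnb2, a B-type cyclin, stood at 405, 91.6, 209 and 35.0 CPM and at 381, 181, 143 and 43.3 CPM. In each of these 3 genes the treated T-like value was below the PBS one and the treated macrophage-like value above it. Birc5, the survivin subunit of the chromosomal passenger complex, stood at 335, 105, 178 and 33.7 CPM and at 288, 182, 131 and 20.8 CPM. Ube2c, the ubiquitin-conjugating enzyme of the anaphase-promoting complex, stood at 124, 49.9, 59.1 and 20.8 CPM and at 129, 86.6, 48.1 and 26.0 CPM. Hmgb2, a chromatin protein that is also made in cells that do not divide, stood at 1315, 788, 890 and 416 CPM and at 1190, 1205, 796 and 393 CPM, so that in the PBS library tumour-like and T-like cells were level for it. Hmgb2 made up a large part of the mitotic sum and stays in all sums of mitotic members. It was left out of the counts of cells with 3 or more mitotic UMIs below.

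**Figure D2:**
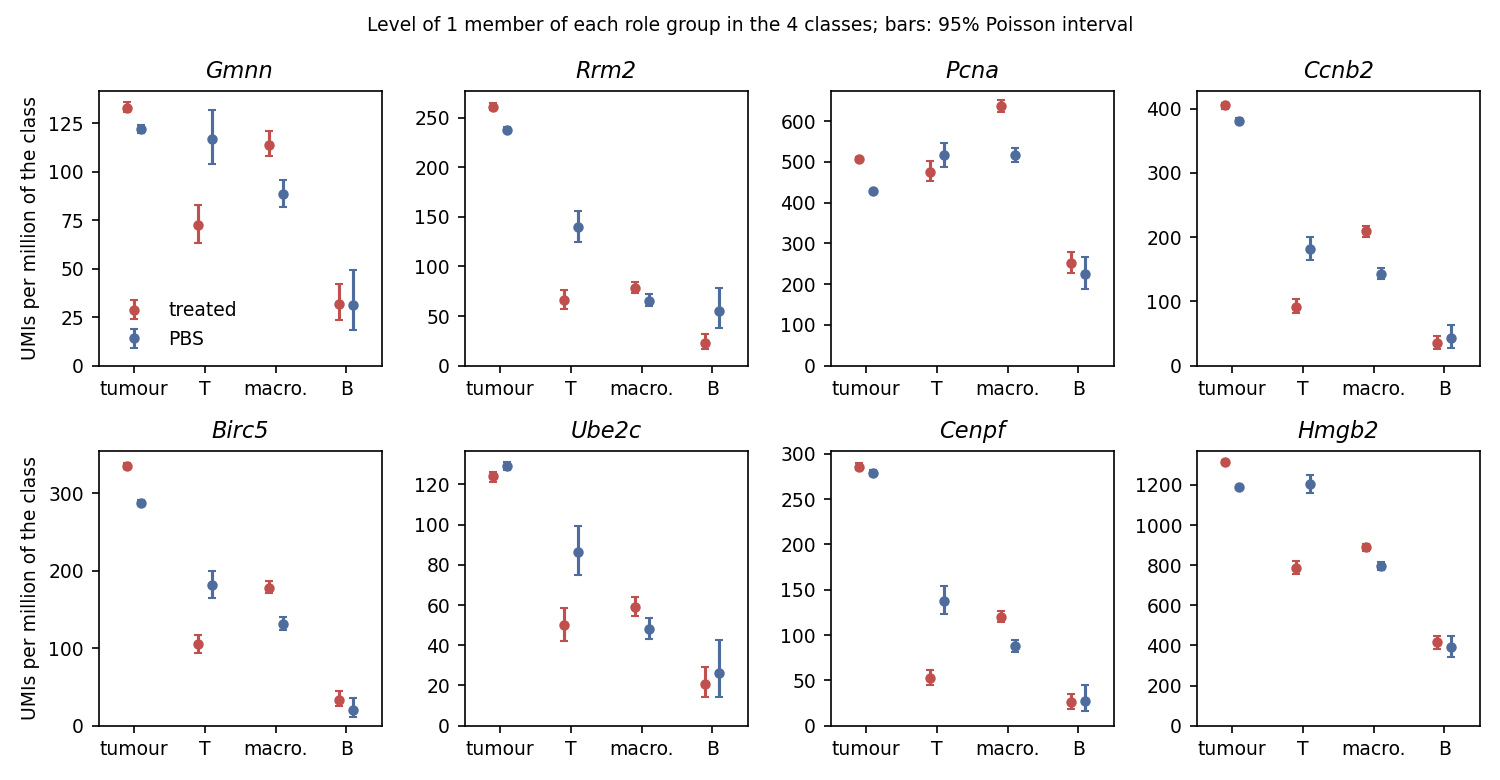
CPM of the class (vertical axes, from 0) for the member with the most UMIs of each of 8 role groups in tumour-like, T-like, macrophage-like (macro.) and B-like cells, with 1 point per library and 95% Poisson intervals. Pcna is nearly level over 3 classes, while Cenpf goes from 286 CPM in treated tumour-like cells to 25.9 CPM in B-like cells.

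Part of what is counted in an immune cell can be free RNA of tumour cells, so the tumour markers were read in each class as a gauge. They stood at 6.48% (treated) and 7.65% (PBS) of their tumour-like level in T-like cells, at 5.13% and 6.71% in macrophage-like cells and at 8.63% and 9.39% in B-like cells. The mitotic members stood at 36.6% and 67.2% of their tumour-like level in T-like cells, at 54.4% and 46.7% in macrophage-like cells and at 18.1% and 19.9% in B-like cells. The distance between these figures was smallest in B-like cells. Hmgb2 is part of the mitotic figures, with 416 of 905 CPM in treated and 393 of 945 CPM in PBS B-like cells. Without Hmgb2 and with cells thinned to 1000 UMIs, B-like cells had means of 0.371 and 0.493 mitotic UMIs. Tumour-like cells had 3.22 and 3.10. Of the 8 tumour markers, 7 and 6 had UMIs in T-like cells, 6 and 7 in macrophage-like cells and 6 in B-like cells of either library, with Prl2c2 or Prl2c3 or both at 0.

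In the whole libraries the treatment groups were close. S-phase members summed to 1600 CPM treated and 1493 CPM PBS, a ratio of 1.07 (1.06 to 1.08), and mitotic members to 4447 and 4427 CPM, a ratio of 1.0. None of the 39 members was 1.5-fold apart in either direction, against 8.61% of all genes with at least 50 UMIs that were 1.5-fold higher in the treated library and 4.94% that were lower. The classes below differed in direction, and their shares of cells differed between the libraries (T-like 18.3% against 8.96%, B-like 13.9% against 4.64%). Fewer cells of a type and less RNA per cell cannot be told apart in these whole-library sums.

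In tumour-like cells the members were slightly higher after treatment, S-phase members more than mitotic ones. The summed ratio was 1.12 (1.11 to 1.13) for the S-phase members and 1.05 (1.05 to 1.06) for the mitotic members. 30 of the 39 members had a ratio above 1, and none was 1.5-fold apart, against a background of 4.33% of genes higher and 5.23% lower. All 8 members that load or guard the helicase were above 1. Among them Mcm2 went from 38.2 CPM in the PBS to 47.7 CPM in the treated library (ratio 1.25, 1.19 to 1.31), and Mcm5 from 40.8 to 46.4 CPM (1.14, 1.09 to 1.19). Pcna, at 428 CPM in PBS and 507 CPM in treated cells, had a ratio of 1.18 (1.17 to 1.20). The 2 S-phase members below 1 were those that act earliest. E2f1, the transcription factor, stood at 16.1 CPM in PBS and 14.4 CPM in treated cells (0.894, 0.829 to 0.965), and Ccne2, the cyclin of S-phase entry, at 16.8 and 14.6 CPM (0.869, 0.807 to 0.937).

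Within the mitotic members of tumour-like cells, the groups differed by role. The 4 genes of cyclin A, cyclin B and Cdk1 summed to 767 CPM treated and 687 CPM PBS (1.12, 1.10 to 1.13). The 7 mitotic kinase and passenger complex genes summed to 873 and 794 CPM (1.10, 1.09 to 1.11), with intervals that span 1 for Aurka (1.01, 0.971 to 1.06), Bub1 (1.03, 0.997 to 1.06) and Bub1b (1.03, 0.987 to 1.08). Ccna2 had the highest ratio of all members, at 70.9 CPM treated and 55.7 CPM PBS (1.27, 1.23 to 1.32), but its last 500 bases overlap Exosc9 on the opposite strand, and the sources used here do not say whether counting used strand. Ccnb1, whose product activates Cdk1 for mitotic entry, stood at 71.6 and 61.4 CPM (1.17, 1.12 to 1.21), and Aurkb, the passenger complex kinase, at 64.9 and 54.8 CPM (1.19, 1.14 to 1.23). The 7 kinetochore, spindle and cytokinesis genes summed to 1003 and 999 CPM (1.0, 0.995 to 1.01). Mki67, the most used proliferation marker, was lower, at 253 CPM treated and 271 CPM PBS (0.936, 0.919 to 0.953), as was Top2a, the topoisomerase that untangles sister chromatids, at 572 and 599 CPM (0.955, 0.944 to 0.967). By CPM, the 2 markers most often read as proliferation thus stood on the other side of 1 from the summed list. Their shares of cells after thinning, given below, did not have that direction.

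The tumour-like class joins 4 clusters, 1 to 4, whose shares differed between the libraries. Clusters 1 and 2 held 13.4% and 18.2% of treated against 21.0% and 25.6% of PBS tumour-like cells, and clusters 3 and 4 held 36.8% and 31.6% against 30.2% and 23.2%. Cluster 2, led by Cilp, H19 and Postn, had the lowest levels, at 887 and 824 CPM of S-phase members in treated and PBS cells. Cluster 4, led by Timm8a1, Hspd1 and Klra4, had the highest mitotic levels, at 5688 and 5476 CPM. Within each of the 4 clusters the S-phase ratio of summed CPM was above 1, between 1.08 and 1.16. With cells thinned to 1000 UMIs, clusters 1 and 2 went against that direction. Mean S-phase UMIs per cell were 1.94 treated and 2.02 PBS in cluster 1, and 0.672 and 0.756 in cluster 2. Clusters 3 and 4 kept the direction, at 1.41 and 1.19 and at 2.09 and 1.83. The mitotic ratio was 1.11 (1.10 to 1.13) in cluster 2 and 1.04 (1.03 to 1.05) in cluster 4, and it was 0.996 (0.985 to 1.01) in cluster 1 and 1.0 (0.992 to 1.01) in cluster 3. Mki67 was below 1 in all 4 clusters, from 0.855 (0.829 to 0.882) in cluster 3 to 0.969 (0.927 to 1.01) in cluster 1.

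**Figure D3:**
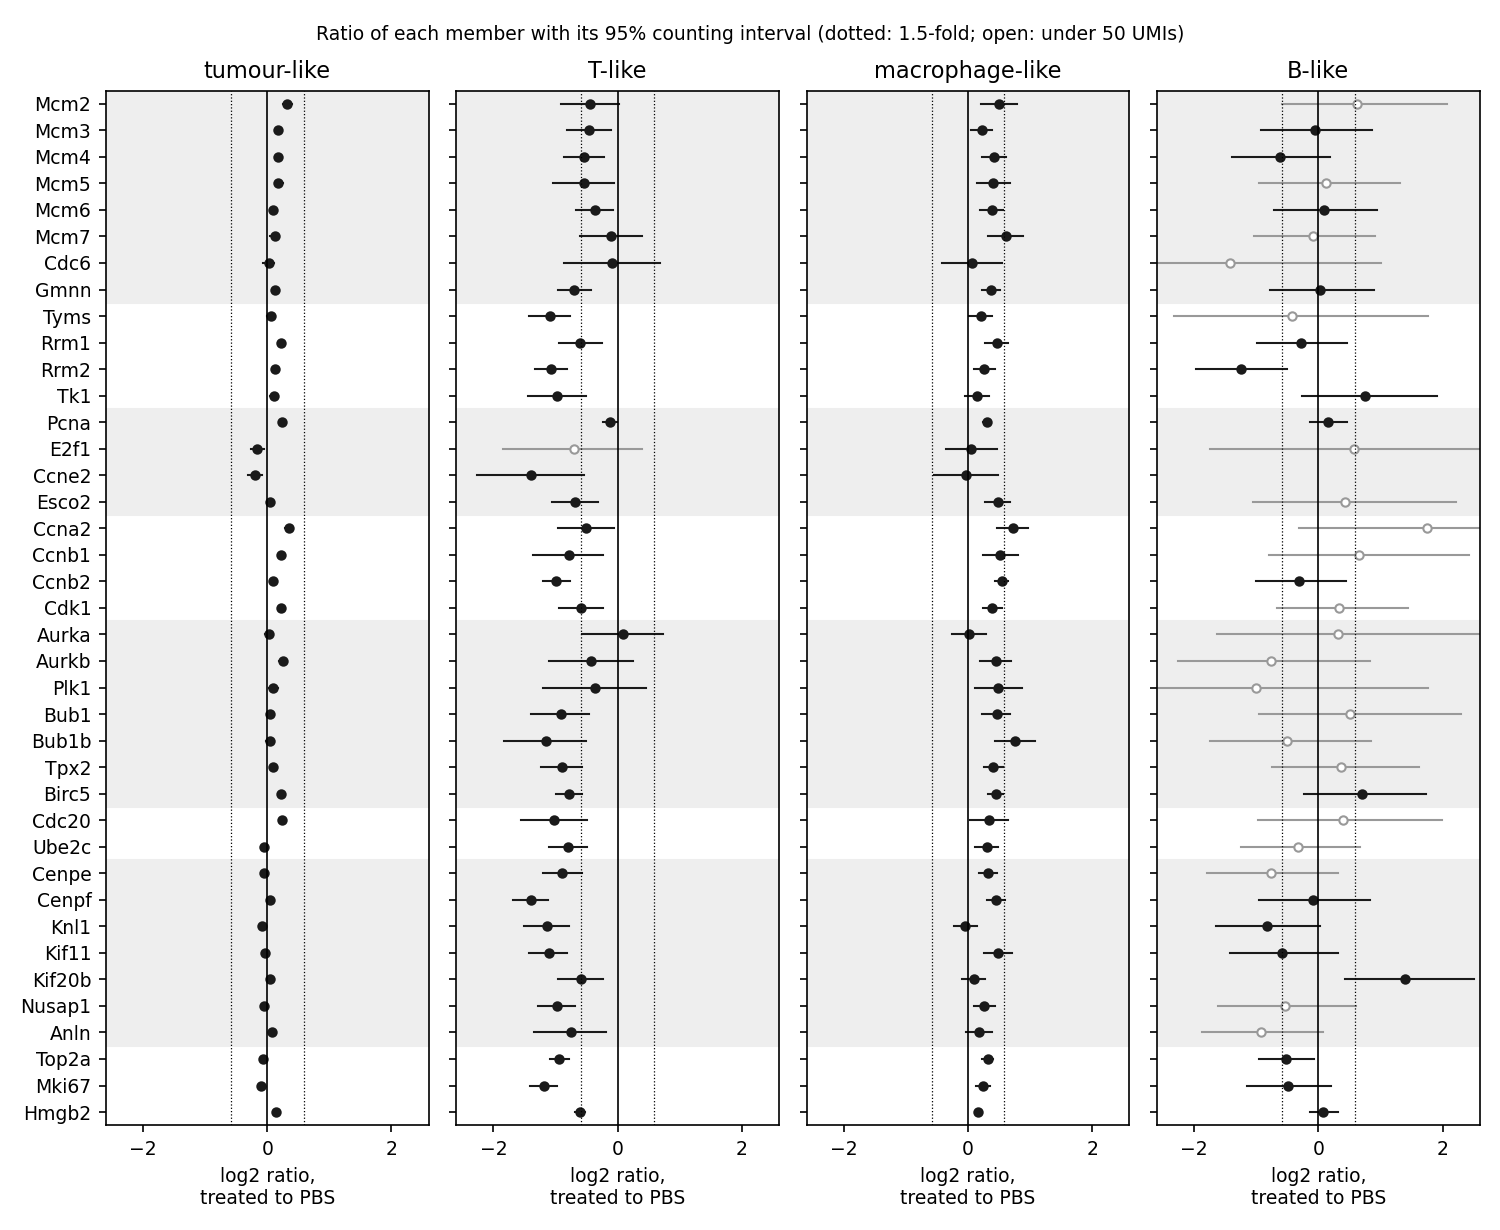
Log2 ratio of treated to PBS (horizontal axes) for each of the 39 members in 4 classes, grouped by role in shaded bands, with 95% counting intervals; dotted lines mark 1.5-fold, open points have under 50 UMIs, some B-like intervals run past the axis, and Ccne2 has no B-like ratio because it had 0 UMIs in treated cells. T-like points lie left of 0 except Aurka, macrophage-like points right of 0 except Knl1 and Ccne2, and tumour-like points near 0.

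In T-like cells nearly all members were lower in the treated library, mitotic members more than S-phase members. The summed ratio was 0.573 (0.554 to 0.593) for the mitotic and 0.734 (0.698 to 0.772) for the S-phase members. Of 38 members with at least 50 UMIs, 37 had a ratio below 1 and 26 were at least 1.5-fold lower, against 12.0% of 7548 genes measured in these cells. These 26 were 19 of 23 mitotic and 7 of 15 S-phase members. None was 1.5-fold higher (background 7.71%). The median log2 ratio was -0.90 over the mitotic and -0.55 over the S-phase members, and -0.06 over all genes measured. Member counts here are small, with medians of 1625 and 2482 UMIs per cell in the treated and PBS T-like cells.

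Among the mitotic members of T-like cells, the kinetochore group had the lowest summed ratio of the 5 role groups. All 7 kinetochore, spindle and cytokinesis genes were at least 1.5-fold lower, and they summed to 287 CPM treated and 589 CPM PBS (0.487, 0.447 to 0.530). Cenpf had 162 UMIs (52.4 CPM) in treated and 317 UMIs (138 CPM) in PBS cells, a ratio of 0.38 (0.313 to 0.461). Mki67 had 288 UMIs (93.2 CPM) and 490 UMIs (213 CPM), a ratio of 0.437 (0.377 to 0.507), and Top2a 614 UMIs (199 CPM) and 874 UMIs (380 CPM), a ratio of 0.523 (0.471 to 0.580). The kinases were less uniform, and 4 of the 7 genes of this group were 1.5-fold lower. Bub1b, a spindle checkpoint kinase, stood at 10.7 and 23.9 CPM (0.447, 0.281 to 0.700). Aurka, the centrosome kinase, stood at 16.5 and 15.7 CPM (1.05, 0.675 to 1.66) and was the exception to the direction, with an interval that spans 1. Ccnb1 stood at 15.9 and 27.4 CPM (0.579, 0.390 to 0.854).

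Among the S-phase members of T-like cells, the enzymes of deoxynucleotide supply had the lowest summed ratio of the 3 role groups. All 4 were at least 1.5-fold lower, at 174 CPM treated and 338 CPM PBS together (0.514, 0.459 to 0.574). Tyms, thymidylate synthase, stood at 42.1 and 89.6 CPM (0.470, 0.374 to 0.588) and Rrm2 at 66.4 and 140 CPM (0.475, 0.397 to 0.568). The 6 helicase subunits differed less. Mcm5 stood at 22.3 and 32.6 CPM (0.685, 0.486 to 0.962), and Mcm7 at 24.9 and 27.0 CPM (0.924, 0.653 to 1.31), with Cops6 over its last 500 bases on the opposite strand. Cdc6, the loader of the helicase, stood at 11 and 11.7 CPM (0.937, 0.549 to 1.61). Pcna was nearly level at 476 and 517 CPM (0.920, 0.852 to 0.994), and Ccne2, with 19 and 37 UMIs, stood at 6.15 and 16.1 CPM (0.382, 0.208 to 0.682; Ints8 lies over its last bases on the opposite strand).

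The T-like difference went along with which T-like clusters were present. Cluster 6, whose leading genes include Satb1, Skap1 and Themis, held 78.3% (76.2 to 80.3) of the T-like cells in the treated library and 46.4% (42.7 to 50.1) in the PBS library. Cluster 7, led by Nkg7, Gzmb and Cd8a, genes of killer lymphocytes, held 7.05% (5.84 to 8.43) and 35.3% (31.8 to 39). Cluster 14, led by Ctla4, Ikzf2 and Icos, held 14.6% and 18.3%. Mitotic members stood at 744 CPM treated and 1395 CPM PBS in cluster 6, at 4432 and 4426 CPM in cluster 7 and at 4029 and 3030 CPM in cluster 14. Their ratio was thus 0.533 (0.493 to 0.577) in cluster 6, 1.0 (0.95 to 1.05) in cluster 7 and 1.33 (1.24 to 1.43) in cluster 14. With the 3 clusters weighted equally in both libraries, the log2 ratio over T-like cells was 0.06 for the mitotic members, against -0.80 over the cells as they were, and -0.02 for the S-phase members, against -0.45. A lower level of mitotic members in treated T-like cells was therefore measured within cluster 6 and not within clusters 7 and 14.

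Single members in the T-like clusters followed the same division. In cluster 6, Mki67 stood at 23.6 CPM treated and 77.9 CPM PBS (0.302, 0.203 to 0.448) and Top2a at 76.3 and 170 CPM (0.448, 0.353 to 0.569), while Pcna was level at 412 and 415 CPM (0.993, 0.872 to 1.13). 12 of 13 mitotic members measured in this cluster were at least 1.5-fold lower, against 6.32% of its genes, and none was 1.5-fold higher (background 6.34%). In cluster 7, Mki67 stood at 278 and 320 CPM (0.871, 0.705 to 1.07) and Pcna at 743 and 581 CPM (1.28, 1.12 to 1.46). 2 of 17 mitotic members measured there were 1.5-fold lower (background 9.20%) and none was higher (background 6.32%). In cluster 14, Cdk1, the kinase of mitotic entry, stood at 102 and 51.6 CPM (1.97, 1.16 to 3.48), and all 14 mitotic members measured had a ratio above 1, 6 of them 1.5-fold or more against a background of 7.80%, and none lower (background 5.98%). Ccnb1, under the limit of 50 UMIs with 17 treated and 22 PBS UMIs, stood the other way (0.575, 0.287 to 1.13). The S-phase members of cluster 14 did not share that direction, with a summed ratio of 0.880 (0.787 to 0.985). After thinning to 1000 UMIs, mean S-phase UMIs per cell were 0.690 treated and 0.625 PBS in cluster 6, against the direction of its CPM, 1.57 and 1.37 in cluster 7, and 0.855 and 0.856 in cluster 14.

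**Figure D4:**
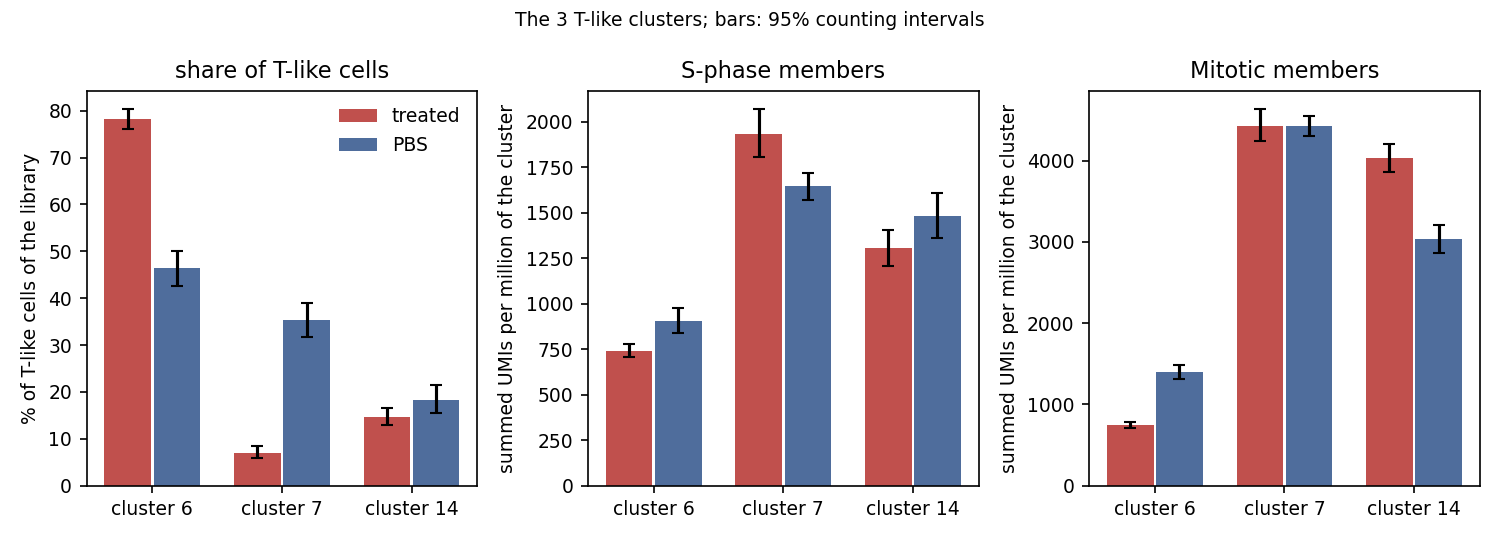
Share of the library's T-like cells (left, %) and summed CPM of the cluster for S-phase (middle) and mitotic members (right) in clusters 6, 7 and 14, with 1 bar per library and 95% counting intervals. Cluster 7 holds 7.05% (treated) and 35.3% (PBS) of the T-like cells and has nearly equal mitotic levels in both.

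Mitotic UMIs of T-like cells sat in few cells. With every cell thinned to 1000 UMIs and shallower cells left out (238 treated and 57 PBS), 61 of 1336 treated cells (4.57%, 3.51 to 5.83) and 70 of 648 PBS cells (10.8%, 8.52 to 13.5) carried 3 or more UMIs of mitotic members other than Hmgb2. These cells held 57.8% and 72.6% of those UMIs, so the intervals on summed UMIs above are narrower than cell-to-cell sampling would give. In monocyte-like cells, the class with the lowest such shares, they were 0.943% (0.195 to 2.73) and 1.98% (0.542 to 4.99), at median depths of 3598 and 4635 UMIs. In cluster 6 the cells were 12 of 1023 treated (1.17%, 0.608 to 2.04) and 12 of 291 PBS (4.12%, 2.15 to 7.09), in cluster 7 23 of 106 (21.7%) and 47 of 239 (19.7%), and in cluster 14 26 of 207 (12.6%) and 11 of 118 (9.32%). Cells with 3 or more mitotic UMIs had higher totals than T-like cells with 0 (medians of 4136 against 1745 UMIs treated, and 6164 against 2522 PBS) and higher doublet scores (medians of 0.0395 against 0.0218, and 0.0312 against 0.0153). Their mean of tumour-marker UMIs per 1000 was 0.197 against 0.0861 in the treated and 0.0429 against 0.111 in the PBS library. The part of doublets in this result was not tested beyond the removal settings tried.

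Shares of T-like cells with a UMI of a single gene differed by gene. Mki67 was seen in 3.44% (2.53 to 4.57) of treated and 7.10% (5.24 to 9.36) of PBS cells after thinning (unthinned 6.42% and 15.3%), and Top2a in 8.46% (7.02 to 10.1) and 13.9% (11.3 to 16.8; unthinned 12.8% and 23.5%). The intervals overlapped for Cdk1, at 2.32% (1.58 to 3.28) and 3.55% (2.26 to 5.28; unthinned 4.19% and 9.65%), and for Ccnb1, at 1.05% (0.574 to 1.75) and 1.54% (0.742 to 2.82; unthinned 2.35% and 4.82%). Pcna, at 31.1% (28.7 to 33.7) and 26.5% (23.2 to 30.1; unthinned 42.8% and 48.2%), went against its CPM ratio of 0.920, and no order is read from it. In B-like cells, as the class with the lowest summed level of the 4, Mki67 was seen in 2.43% and 2.63% and Top2a in 4.99% and 6.58%, at median depths of 1155.5 and 1483 UMIs. The share with 3 or more S-phase UMIs was 7.26% (5.93 to 8.79) of treated and 10.5% (8.24 to 13.1) of PBS T-like cells, whose intervals overlap.

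Macrophage-like cells had the opposite direction, with S-phase and mitotic members both higher in the treated library. The summed ratio was 1.25 (1.21 to 1.28) for the S-phase and 1.22 (1.20 to 1.25) for the mitotic members, and 37 of the 39 members had a ratio above 1. 3 members were at least 1.5-fold higher, against 3.68% of 10168 genes, and none was 1.5-fold lower (background 6.25%). The median log2 ratio was 0.33 over the S-phase and 0.39 over the mitotic members, and -0.00 over all genes measured. The interval of the ratio lay above 1 for 31 of the 39 members, made up of 12 S-phase (75.0%) and 19 mitotic ones (82.6%), against 19.4% of all genes measured. That background was not matched for UMI count. After thinning, cells with 3 or more mitotic UMIs other than Hmgb2 held 75.3% (treated) and 67.3% (PBS) of those UMIs. The intervals are thus narrower than cell-to-cell sampling would give.

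The cyclin and Cdk1 group of macrophage-like cells had the highest ratio of the 8 role groups, at 381 CPM treated and 266 CPM PBS (1.43, 1.36 to 1.51). Ccna2 stood at 43.0 and 26.1 CPM (1.65, 1.39 to 1.96, with the overlap named above), Ccnb2 at 209 and 143 CPM (1.46, 1.35 to 1.57) and Ccnb1 at 30.3 and 21.1 CPM (1.43, 1.18 to 1.75). Bub1b had the highest single ratio, at 27.4 and 16.2 CPM (1.69, 1.36 to 2.12). Of the replication genes, Mcm7 stood at 32.6 and 21.4 CPM (1.52, 1.26 to 1.85), Mcm5 at 33.8 and 25.5 CPM (1.33, 1.11 to 1.59) and Pcna at 637 and 517 CPM (1.23, 1.18 to 1.28). The chromatin markers were higher as well, with Mki67 at 174 and 147 CPM (1.18, 1.10 to 1.28) and Top2a at 247 and 198 CPM (1.25, 1.17 to 1.33). The 3 members with the lowest ratios had ratio intervals that span 1. These were Knl1, the kinetochore scaffold, at 56.6 and 58.5 CPM (0.968, 0.853 to 1.10), Ccne2 at 7.72 and 7.89 CPM (0.977, 0.688 to 1.40) and Aurka at 26.6 and 26.2 CPM (1.01, 0.840 to 1.23).

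The share of macrophage-like cells with 3 or more mitotic UMIs among 1000 was 17.0% (14.9 to 19.2, 214 of 1261 cells) in the treated and 12.4% (10.3 to 14.7, 110 of 888 cells) in the PBS library. For S-phase members it was 14% (12.1 to 16) and 10.4% (8.43 to 12.6). Depth was alike in both, at medians of 7486 and 6993 UMIs. Macrophage-like cells with 3 or more mitotic UMIs had higher UMI totals than those with 0 mitotic UMIs (medians of 12536.5 against 6594.5 UMIs treated, and 10971.5 against 6591.5 PBS) and higher doublet scores (medians of 0.0481 against 0.0423, and 0.0439 against 0.0402). Their mean of tumour-marker UMIs per 1000 was 0.0794 treated and 0.109 PBS, against 0.0831 and 0.115 in macrophage-like cells with 0 mitotic UMIs. Mean S-phase UMIs in the cells with 3 or more mitotic UMIs were 2.35 and 1.65, against 0.737 and 0.669 in the cells with 0. Of the former, 80.8% and 74.5% carried an S-phase UMI, so these shares are not shares of cells in mitosis.

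**Figure D5:**
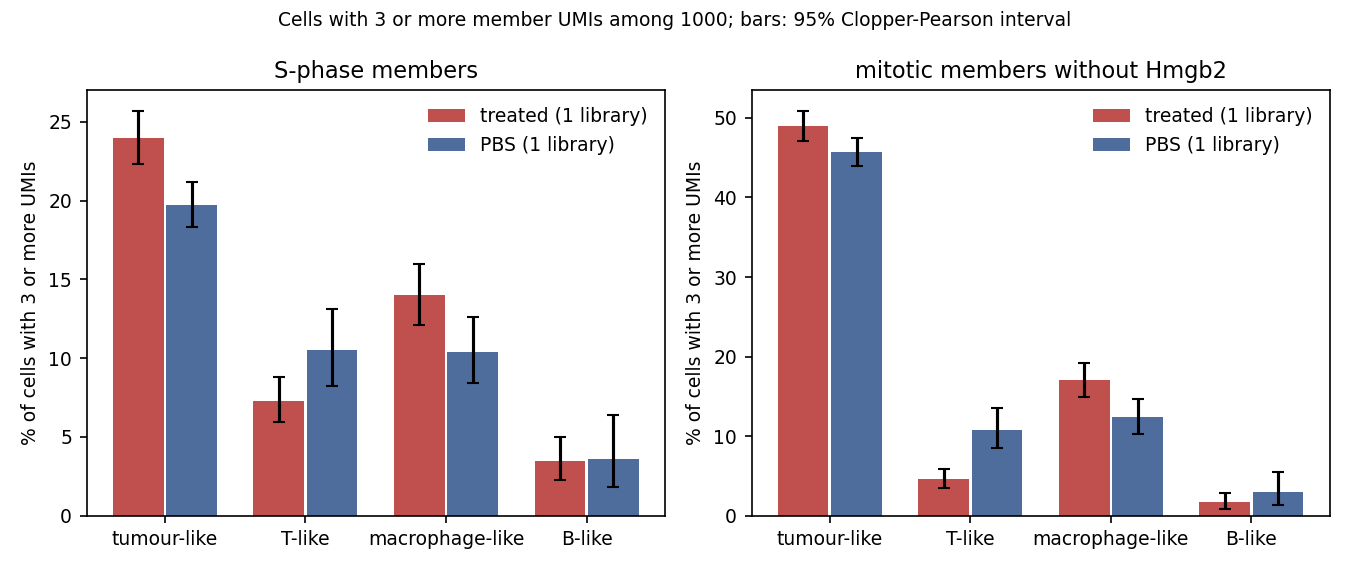
Share of cells (vertical axes, %) with 3 or more UMIs of S-phase members (left) or of mitotic members without Hmgb2 (right) after thinning to 1000 UMIs, in 4 classes, with 1 bar per library and 95% Clopper-Pearson intervals. Mitotic shares are 4.57% treated and 10.8% PBS in T-like cells, and 17.0% and 12.4% in macrophage-like cells.

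In tumour-like cells the same count gave 49.0% (47.1 to 50.9) in the treated and 45.7% (43.9 to 47.5) in the PBS library, so that nearly every other tumour-like cell carried 3 or more mitotic UMIs in 1000. The S-phase share was 24.0% (22.3 to 25.7) and 19.7% (18.3 to 21.2). Mki67 was seen in 19.6% (18.1 to 21.2) and 18.8% (17.4 to 20.2) of thinned tumour-like cells, with overlapping intervals (unthinned 76.0% and 73.7%). Pcna was seen in 32.2% (30.4 to 34.0) and 28.9% (27.3 to 30.6). Cells with 3 or more mitotic UMIs were larger by UMI total than those with 0, at medians of 32971 against 23036.5 UMIs treated and 38804.5 against 27616 PBS.

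In B-like cells the sums differed by less than counting error, except after thinning. The ratio was 0.980 (0.860 to 1.12) for the S-phase and 0.957 (0.866 to 1.06) for the mitotic members. With cells thinned to 1000 UMIs, the log2 ratio of the mitotic members was -0.26 (-0.47 to -0.04), against -0.06 over all UMIs. Only 17 of the 39 members reached 50 UMIs, of which 3 were 1.5-fold higher (background 7.01%) and 3 lower (background 4.35%). Rrm2 had 36 UMIs treated and 32 PBS (23.3 and 55.4 CPM, 0.421, 0.254 to 0.701), and Kif20b, a kinesin of cytokinesis, 70 and 10 UMIs (45.4 and 17.3 CPM, 2.62, 1.34 to 5.71). Top2a stood at 81.1 and 116 CPM (0.699, 0.515 to 0.955), Mki67 at 37.0 and 51.9 CPM (0.712, 0.450 to 1.15) and Pcna at 252 and 225 CPM (1.12, 0.917 to 1.38). Mcm5 and Ccnb1 were below 50 UMIs, with 29 and 10, and 21 and 5 UMIs. Cells with 3 or more mitotic UMIs were 13 of 781 treated (1.66%, 0.889 to 2.83) and 9 of 304 PBS (2.96%, 1.36 to 5.55), after 421 and 61 shallower cells had been left out.

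Genes of the same pathway outside the 39 were read for comparison. In T-like cells, 12 of 21 measured origin firing and fork genes were at least 1.5-fold lower and none higher, although Cdt1, which loads the helicase, was at 39.5 CPM treated and 26.5 CPM PBS (1.49, 1.09 to 2.06). Mcm10, which helps to start the helicase, stood at 6.80 CPM treated and 23.9 CPM PBS (0.284, 0.163 to 0.478). Of 33 other mitotic genes, 22 were lower and none higher, among them the condensin subunit Ncapg at 15.2 and 42.6 CPM (0.357, 0.247 to 0.510) and the kinetochore gene Nuf2 at 9.71 and 24.8 CPM (0.392, 0.243 to 0.620). These shares are read against the 12.0% of all genes measured in T-like cells that were lower and the 7.71% that were higher. The lists of G1 cyclins and Cdks, of Cdk inhibitors and of E2F, pocket and MuvB factors are read against the same background. They are short, so that 1 or 2 calls move their shares much. Of 8 G1 cyclins and Cdks, 1 was higher, Ccnd3, the D-type cyclin of lymphocytes, at 183 and 107 CPM (1.72, 1.48 to 2.01). 2 were lower, Cdk6, a partner of the D-type cyclins, at 138 and 274 CPM (0.504, 0.445 to 0.571) and Ccne1 at 8.74 and 16.1 CPM (0.543, 0.318 to 0.916). Of 4 measured Cdk inhibitors, Cdkn1a, the p21 gene, was lower, at 42.1 and 83.9 CPM (0.501, 0.398 to 0.629). Of 15 measured E2F, pocket and MuvB factors, 2 were lower and none higher, E2f4 at 27.2 and 43.5 CPM (0.625, 0.462 to 0.844) and E2f3 at 30.1 and 46.1 CPM (0.653, 0.489 to 0.871).

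In macrophage-like cells, 7 of 38 measured other mitotic genes were at least 1.5-fold higher and none lower, with 36 above 1, against 3.68% of all genes higher and 6.25% lower. Nek2, a centrosome kinase, stood at 12.5 and 5.78 CPM (2.16, 1.51 to 3.14) and Aspm, a spindle pole gene, at 33.6 and 18.5 CPM (1.82, 1.48 to 2.24). Of 26 origin firing and fork genes, 2 were higher and 2 lower, near that background. Cdt1 stood at 37.8 and 25 CPM (1.52, 1.27 to 1.82), and Slbp, the histone mRNA binder, at 32.0 and 49.3 CPM (0.648, 0.557 to 0.754). Ccnd2, a D-type cyclin, was lower, at 60.7 and 92.6 CPM (0.655, 0.587 to 0.732), and Cdkn2c, the p18 inhibitor of Cdk4 and Cdk6, higher, at 49.1 and 30.9 CPM (1.59, 1.36 to 1.87). In tumour-like cells, where 4.33% of all genes were higher and 5.23% lower, 1 gene of these 5 lists was 1.5-fold apart, Lin37, a MuvB subunit, at 4.71 and 7.07 CPM (0.666, 0.587 to 0.756).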

How the data were processed

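Single cells of 1 treated and 1 PBS tumour library were prepared with the MobiCube 3′ kit, per the labels' protocols. The authors deposited UMI counts, whole and not normalized, for every gene and barcode. STAR and mm10 are named in the submitters' processing notes, without versions. The counting program, its annotation and its strand setting are not stated there. Barcodes with at least 200 genes and at most 20% mitochondrial UMIs were kept, from 10002 treated (115576457 UMIs) and 8962 PBS barcodes (145045294 UMIs). The highest Scrublet doublet scores were removed at 0.8% per 1000 barcodes (694 and 569 barcodes). Cells were clustered together in scanpy 1.11.5 (10000 per cell, 2000 variable genes without the 221 cell cycle and histone genes, 30 components, 15 neighbours, Leiden resolution 1.0).

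A cluster took a type's name when more than 50% of that type's markers with UMIs (3 or more) were seen in at least 5% of its cells and stood at 25% or more of the level in their highest cluster. Tumour-like clusters also had under 100 CPM of Ptprc and a median of at least 10000 UMIs. Low-RNA clusters were kept apart unless 3 of their own markers led them. This naming rule was chosen with the clusters already known. UMIs were summed per class and library as CPM with exact Poisson intervals, ratios carry exact conditional binomial intervals, and shares of cells exact Clopper-Pearson intervals. Members with at least 50 UMIs over both libraries count as measured. With 1 library per group no test between groups was possible. Intervals were checked only on simulated independent Poisson counts. That check cannot show how far they are too narrow where UMIs sit in few cells. The UMI counts are tags of transcript ends and were not divided by gene length. Gene positions come from GENCODE M21.

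The members and gene lists were chosen with earlier results of these data known. Named in full are Mki67, Top2a, Pcna, Mcm5 and Ccnb1, the 3 highest and 3 lowest ratios of each class, the member with the most UMIs of each role group, and up to 4 other pathway genes per list. Further members are named as examples of their role group. Alternatives changed the cell weights, thinning, doublets, mitochondrial limit, clustering, class rule and scaling, and 4 more were added after the data were seen.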

Additional observations from a re-analysis of the deposited data

Results flagged for a closer look

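Opposite directions in 2 classes or clusters, each with an interval that leaves out a log2 ratio of 0, marked 7 differences for a closer look. With 1 library per group none of these differences was tested. For the S-phase members, the log2 ratio of treated to PBS was 0.16 in tumour-like and -0.45 in T-like cells, a difference of 0.61. Against macrophage-like cells, at 0.32, the T-like value differed by -0.77. For the mitotic members, the ratio was 0.07 in tumour-like and -0.80 in T-like cells, a difference of 0.87, and against the 0.29 of macrophage-like cells the T-like value differed by -1.09.

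Within T-like cells, the S-phase ratio was -0.29 in cluster 6, 0.23 in cluster 7 and -0.18 in cluster 14. Cluster 6 differed from cluster 7 by -0.52, and cluster 7 from cluster 14 by 0.41. With cells thinned to 1000 UMIs, which also weights cells equally and leaves out shallower ones, the mean S-phase UMIs per cell were 0.690 treated and 0.625 PBS in cluster 6, the other direction, and 0.855 and 0.856 in cluster 14. The mitotic ratio was -0.91 in cluster 6 and 0.41 in cluster 14, a difference of -1.32, the widest of the 7.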

How the results depend on the processing

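All values are log2 ratios of treated to PBS for summed members. S-phase and mitotic members kept their direction under all alternatives run in tumour-like cells (0.12 to 0.21 and 0.04 to 0.10) and macrophage-like cells (0.29 to 0.36 and 0.19 to 0.37). In T-like cells the S-phase value stayed below 0 (-0.49 to -0.02), and the mitotic value turned from -0.80 to 0.06 with clusters weighted equally, an alternative added after seeing the data, which by construction removes the difference in cluster shares. The S-phase value in T-like cells was -0.23 with equal cell weight, -0.26 thinned and -0.02 with clusters weighted equally, against -0.45. The mitotic value there was -0.72 thinned, -0.53 without doublet removal, -0.75 with median scaling and -0.91 with a tumour-like background taken off. S-phase members in tumour-like cells, at 0.16, were at 0.19 with equal cell weight, 0.15 without doublet removal or with clusters weighted equally, 0.21 with stricter doublet removal, 0.12 with classes from markers per cell and 0.14 with low-RNA clusters joined. Mitotic members there, at 0.07, were at 0.10 with equal cell weight or stricter doublet removal, 0.06 without doublet removal, 0.08 with low-RNA clusters joined and 0.04 with clusters weighted equally. In macrophage-like cells the S-phase value of 0.32 became 0.36 with the background taken off, and the mitotic value of 0.29 became 0.19 with equal cell weight, 0.24 thinned, 0.32 at 10% mitochondrial UMIs and 0.37 with the background taken off. In B-like cells the mitotic value of -0.06 became -0.26 (-0.47 to -0.04) thinned. Over whole libraries, weighting the 4 classes equally moved the S-phase value from 0.10 to 0.03 and turned the mitotic value from 0.01 to -0.09. The cause was not tested in these cases except where named. At 10 in place of 50 UMIs, the T-like counts of lower members were 8 S-phase and 19 mitotic, and in B-like cells 4 mitotic members were higher and 4 lower in place of 2 and 1. Depth limits the B-like cells most. No paired analysis was possible because each group has 1 library.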

Other observations

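Members were also read in classes outside the 4 compared above. In monocyte-like cells (333 treated, 205 PBS) mitotic members summed to 605 CPM treated and 814 CPM PBS (0.743, 0.671 to 0.822), and S-phase members to 488 and 453 CPM (1.08, 0.95 to 1.22). In dendritic-like cells (169 and 149) mitotic members stood at 2488 and 3027 CPM (0.822, 0.778 to 0.868). S-phase members there stood at 1101 and 915 CPM (1.20, 1.10 to 1.32). The share of mitotic UMIs among member UMIs was thus 69.3% treated and 76.8% PBS. After thinning, mean mitotic UMIs without Hmgb2 were nearly level in dendritic-like cells, at 1.09 treated and 1.13 PBS. Those with 3 or more were 23 of 150 (15.3%) and 18 of 137 (13.1%), with overlapping intervals. Hmgb2 was seen in 42.7% and 27.0%, also with overlapping intervals. Mean S-phase UMIs kept their direction, at 0.860 and 0.737. Summed tumour markers also differed in dendritic-like cells, at 177 CPM treated and 96.7 CPM PBS, and stood at 72.6 and 98.3 CPM in monocyte-like cells. Their part in these values was not tested. In the low-RNA clusters with little Ptprc (770 and 1596 cells), the S-phase members were at 1682 and 1800 CPM (0.934, 0.908 to 0.962) and the mitotic members at 4135 and 3820 CPM (1.08, 1.06 to 1.10). The 4 genes of nucleotide supply were lower there, at 730 and 933 CPM (0.782, 0.749 to 0.817). These clusters made up 8.93% of treated and 20.3% of PBS cells. The low-RNA cluster with macrophage markers (478 and 752 cells, medians of 846.5 and 917 UMIs) did not share the mitotic direction of macrophage-like cells. Its mitotic members stood at 2337 CPM treated and 2421 CPM PBS, and its S-phase members at 964 and 928 CPM. Thinned means of mitotic UMIs without Hmgb2 were 1.55 in either library. Its tumour markers stood at 308 and 327 CPM, and their part was not tested.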
